A study of Mus musculus with 58 samples.

Results

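The IFIT and OAS genes are 2 interferon-stimulated families of antiviral proteins, and 9 of them were followed in mouse microglia: Ifit1, Ifit2, Ifit3 and Ifit3b, and Oas1a, Oas2, Oas3, Oasl1 and Oasl2. The members were chosen by family name and matched by symbol to Ensembl identifiers, and all 9 were found among the 47643 genes of each count table. The series holds 58 samples, of which the 34 microglia libraries in 8 groups were used and the 24 cortex samples were not used here. Cultured primary microglia of wild-type mice were exposed for 24 h to vehicle or to fibrils of full-length tau at 2 µg/ml (4 libraries each). Microglia were also isolated with CD11b beads from brains of male PS19 mice, which carry human P301S tau under the mouse prion promoter, and of NTG mice, their non-transgenic controls (4 each). The PS19 mice were 10.98 months old, and the NTG mice were 10.98 or 11.18 months old.

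In the genetic experiments, IkbkbCA primary microglia (Cx3cr1 CreERT2/+; IkbkbCA F/F, 5 libraries) expressed a constitutively active IKKβ, the kinase that releases NF-κB, and IkbkbWT microglia carried IkbkbCA F/F without Cre (5). Ikbkb-/- primary microglia (Cx3cr1 CreERT2/+ with Ikbkb F/F, 4 libraries) had the gene of the same kinase targeted for deletion. Ikbkb+/+ microglia carried Ikbkb F/F without Cre (4). All 4 of these groups received 4-hydroxytamoxifen, which activates the recombinase. The recombinase sits in the Cx3cr1 locus, so it acts in any Cx3cr1-expressing macrophage and leaves the carriers with 1 intact copy of Cx3cr1. In both experiments the state of Ikbkb and the presence of the CreERT2 allele cannot be told apart, because every control lacked Cre.

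Type I interferons bind the receptor made of Ifnar1 and Ifnar2. The kinases Jak1 and Tyk2 then start a signal that Stat2 and Irf9 carry to interferon-stimulated response elements in the promoters of target genes. IFIT proteins are built of tetratricopeptide repeats and bind viral RNA whose 5′ end lacks the host's cap methylation. OAS synthetases detect long duplex RNA and make 2-5A, a short oligoadenylate that acts as a messenger of RNA decay, while the OAS-like protein Oasl1 lacks this activity. In microglia these genes serve as common markers of an interferon-responsive state.

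The IFIT members lie together on chromosome 19 between positions 34550694 and 34650009 of GRCm38, a span of 99.3 kb. Oas1a, Oas2 and Oas3 lie on chromosome 5 between 120730333 and 120907521, and Oasl2 and Oasl1 lie on the same chromosome between 114896936 and 114937915. RefSeq promoters on GRCm38.p6, each of 300 bases from 250 before to 50 after a start site, were given for 8 of the members, all but Oas2. The letters GAAANNGAAA, a core of the interferon-stimulated response element, were searched on both strands and occurred in 1131 of 32851 promoters (3.44%). They occurred in the promoters of 5 members, which are shown because the same element is the point where the receptor pathway meets the DNA. Matches are in capitals, and the 16 capitals of Oas1a hold a pair of overlapping matches:
Ifit1, chr19:34640639-34640938, plus strand: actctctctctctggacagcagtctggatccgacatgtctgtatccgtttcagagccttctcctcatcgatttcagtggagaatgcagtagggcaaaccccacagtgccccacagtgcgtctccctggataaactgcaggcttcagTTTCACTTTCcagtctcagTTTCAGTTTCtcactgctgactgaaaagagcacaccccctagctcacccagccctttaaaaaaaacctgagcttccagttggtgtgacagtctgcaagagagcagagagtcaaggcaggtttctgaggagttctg
Ifit3, chr19:34583279-34583578, plus strand: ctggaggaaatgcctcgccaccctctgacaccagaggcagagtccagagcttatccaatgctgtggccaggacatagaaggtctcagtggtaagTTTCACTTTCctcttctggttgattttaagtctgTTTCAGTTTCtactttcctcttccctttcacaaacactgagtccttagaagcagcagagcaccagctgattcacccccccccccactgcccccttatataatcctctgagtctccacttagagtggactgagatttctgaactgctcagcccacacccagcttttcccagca
Ifit3b, chr19:34607707-34608006, plus strand: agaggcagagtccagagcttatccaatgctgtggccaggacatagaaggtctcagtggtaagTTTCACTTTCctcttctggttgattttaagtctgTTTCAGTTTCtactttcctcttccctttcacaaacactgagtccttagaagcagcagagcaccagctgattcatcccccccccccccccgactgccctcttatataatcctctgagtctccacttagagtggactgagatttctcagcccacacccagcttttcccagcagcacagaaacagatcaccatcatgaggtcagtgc
Oas1a, chr5:120907476-120907775, minus strand: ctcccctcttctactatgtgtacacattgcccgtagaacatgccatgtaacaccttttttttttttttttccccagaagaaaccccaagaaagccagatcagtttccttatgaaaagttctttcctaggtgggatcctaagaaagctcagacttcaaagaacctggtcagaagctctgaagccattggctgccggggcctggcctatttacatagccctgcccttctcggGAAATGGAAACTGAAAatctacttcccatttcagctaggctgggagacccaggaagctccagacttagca
Oas3, chr5:120777610-120777909, minus strand: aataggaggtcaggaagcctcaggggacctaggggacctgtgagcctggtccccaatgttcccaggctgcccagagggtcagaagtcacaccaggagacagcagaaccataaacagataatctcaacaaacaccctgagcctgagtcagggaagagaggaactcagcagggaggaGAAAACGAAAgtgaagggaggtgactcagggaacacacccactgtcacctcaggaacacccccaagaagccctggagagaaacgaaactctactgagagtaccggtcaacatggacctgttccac

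In Ifit1, Ifit3 and Ifit3b both matches lay on the opposite strand. In Oas1a the matches lay at -20 to -11 and at -14 to -5 from the start site. The Oas3 promoter held 1 match, and the promoters of Ifit2, Oasl1 and Oasl2 held none in these windows. A gamma-activated site, TTCNNNGAA, occurred in the promoters of Ifit2 and Oas1a and in 8.3% of all promoters. The κB letters GGGANNNNCC occurred in the promoters of Ifit2 and Oasl1 and in 20.73% of all promoters. In Ifit2 the κB match overlapped the gamma-activated site.

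The libraries were made with a 3′ tag kit (QuantSeq), in which reads start near the end of a transcript and counts do not grow with transcript length. Total counts ran from 1672052 to 8349128 per library, with a median of 4720572. Levels are given as CPM, which are counts scaled to a common library size, with TMM factors that correct for differences in library composition, computed over the 34 libraries. The 8 microglia markers were all detected in every group, and lymphocyte markers summed to at most 1.72 CPM in a library. The RNA of the X-linked Xist and of the Y-linked Ddx3y showed that sex was not balanced in the genetic experiments. Xist was 5.65 to 10.4 CPM in Ikbkb-/- and 243 to 401 CPM in Ikbkb+/+ libraries, and Ddx3y was 155 to 173 against 35 to 69.4 CPM. Among the IkbkbWT libraries, numbers 4 and 5 had high Xist and Ddx3y at 2.04 CPM or less, and the other 3 the reverse. IkbkbCA numbers 4 and 5 also stood apart from the other 3, with 150 to 155 against 265 to 279 CPM of Xist. In both groups libraries 1 and 2, and likewise 4 and 5, were the closest pairs, with a chi-square per degree of freedom over genes of 3.09 to 4.89 against 11.0 to 42 for all other pairs. One PS19 library labelled male, number 1, had 177 CPM of Xist. PS19 number 2 had 31.1 CPM and the NTG libraries 26.4 to 31.1 CPM, while PS19 numbers 3 and 4 had 4.31 and 1.80 CPM. These last were also the closest PS19 pair, with a chi-square per degree of freedom of 22.7 against 35.6 to 80.4. The labels do not say whether libraries of a group came from separate cultures or litters, so p-values measure the spread between these libraries.

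Across the 8 groups, the members were high in the same 3: tau, IkbkbCA and Ikbkb-/-. Their summed level was 1019 to 1077 CPM in the tau libraries, 286 to 755 CPM in IkbkbCA and 930 to 1082 CPM in Ikbkb-/-. In the other 5 groups, PS19 included, the sum was 32.1 to 122 CPM. The experiments were made separately, so levels across them are described and not tested.

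**Figure D1:**
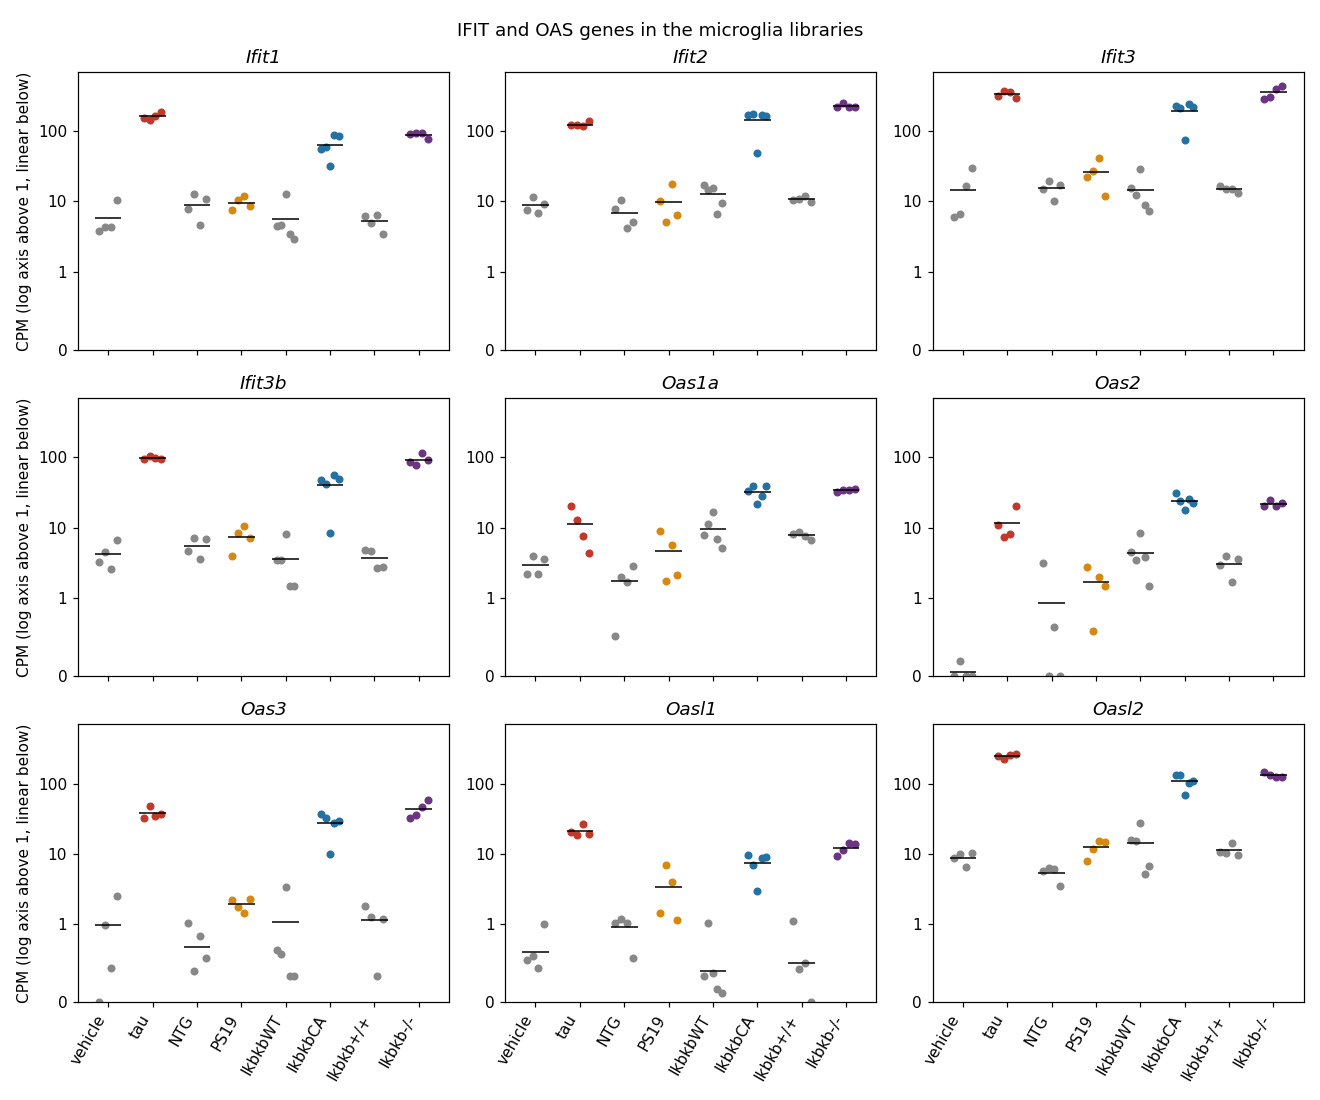
CPM of each member in every library of the 8 groups (points) with the group mean (line), on an axis that is logarithmic above 1 CPM and linear below. Tau, IkbkbCA and Ikbkb-/- libraries lie above their controls in every panel, IkbkbCA replicate 3 is the lowest IkbkbCA library in each panel, and PS19 overlaps NTG in all panels but Oas3 and Oasl2.

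The order of the 3 high groups differed between members. Ifit1 averaged 163 ± 19.3 CPM (SD, n = 4) in tau, 89.7 ± 8.54 CPM (SD, n = 4) in Ikbkb-/- and 64.4 ± 23.2 CPM (SD, n = 5) in IkbkbCA, and only the last 2 overlapped. For Ifit2 tau came last, with 228 ± 13.6 CPM (SD, n = 4) in Ikbkb-/-, 147 ± 54.7 CPM (SD, n = 5) in IkbkbCA and 125 ± 9.20 CPM (SD, n = 4) in tau, and the last 2 overlapped. Within a library, Ifit2 counts per Ifit1 count were 0.723 to 0.844 in tau, 1.53 to 3.05 in IkbkbCA and 2.33 to 2.87 in Ikbkb-/-. In vehicle libraries, where Ifit1 had 7 to 22 counts, the ratio ran from 0.857 to 2.64. It was 1.24 to 3.82 in IkbkbWT and 1.71 to 2.89 in Ikbkb+/+, so each genotype overlapped its own control. In the adult cells it was 0.474 to 1 in NTG and 0.5 to 1.47 in PS19, both spanning the tau range. The tau libraries were below both genotypes. They were also below their vehicle controls, by a small gap to vehicle replicate 4 at 0.857. Part of this contrast lies between experiments, which were not tested against each other.

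Ifit3 was 359 ± 70.4 CPM (SD, n = 4) in Ikbkb-/- and 339 ± 37.0 CPM (SD, n = 4) in tau, and these groups overlapped. Oas1a and Oas2 had lower means in tau than in both genotypes, and only Oas1a did so without overlap. Oas1a was 34.1 ± 1.78 CPM (SD, n = 4) in Ikbkb-/-, 32.5 ± 7.47 CPM (SD, n = 5) in IkbkbCA and 11.2 ± 6.89 CPM (SD, n = 4) in tau. The Oas2 ranges were 7.42 to 20.3 CPM in tau, 17.8 to 30.9 CPM in IkbkbCA and 20.1 to 24.7 CPM in Ikbkb-/-. The tau range of Oas1a, 4.34 to 20.2 CPM, overlapped that of IkbkbWT, 5.21 to 16.4 CPM. Ifit1, Ifit3b, Oasl1 and Oasl2 had their highest group mean in tau. For Oas2 the highest mean was in IkbkbCA, and for the other members it was in Ikbkb-/-. Among the 5 low groups, every neighbour in the order overlapped the next for every member, except that the ranges of Oasl2 in vehicle and NTG did not meet.

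The first question was which members responded to tau fibrils. Tau fibrils raised both families. With tau, Ifit1, which binds RNA with an unmethylated cap, had 155, 143, 164 and 189 CPM in the 4 libraries, against 3.80, 4.33, 4.36 and 10.7 CPM with vehicle. The lowest tau library was far above the highest vehicle library, and Ifit1 rose by 4.93 ± 0.22 on the log2 scale (SE; edgeR quasi-likelihood test, Benjamini-Hochberg FDR = 1.48e-18), which is 30.4-fold. Ifit3, which binds to other IFIT proteins, had 318, 375, 366 and 298 CPM against 5.98, 6.69, 16.6 and 30.0 CPM. The vehicle libraries of Ifit3 were further apart than those of Ifit1, and its log2 change of 4.66 ± 0.44 had the larger error (SE; edgeR, FDR = 0.000148). Ifit2, a further RNA-binding IFIT protein, rose from 6.97 to 11.4 CPM to 119 to 138 CPM, a log2 change of 3.81 ± 0.18 (SE; edgeR, FDR = 1.18e-17). Ifit3b, the neighbouring copy of Ifit3, rose by 4.54 ± 0.22 on the log2 scale (SE; edgeR, FDR = 1.75e-17).

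Among the OAS members, Oasl2, an OAS-like protein with ubiquitin-like repeats, had 248, 220.0, 255 and 266 CPM with tau and 8.70, 10.0, 6.53 and 10.2 CPM with vehicle. Its groups were narrow and far apart, and it rose by 4.82 ± 0.17 on the log2 scale (SE; edgeR, FDR = 6.88e-21). Oas3, the largest OAS synthetase, rose from 0 to 5 counts per vehicle library to 60 to 115 counts per tau library, a log2 change of 5.25 ± 0.37 (SE; edgeR, FDR = 2.84e-13). The synthetase Oas2 had 20, 18, 22 and 42 counts in the tau libraries and 0, 1, 0 and 0 in the vehicle libraries. Its ratio of summed levels was 126, with a counting interval of 22.1 to 5017 (95%, exact conditional binomial, counting error only). Oasl1, which in mice limits translation of Irf7, had 37 to 72 counts with tau and 1 to 3 with vehicle, a ratio of 34.2 (16.3 to 86.2 by the same interval). Fitted fold changes of Oas2 and Oasl1 depend on the prior count, but both passed the test (edgeR, FDR = 1.02e-08 and 1.15e-11).

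Oas1a was left out by the filter on low counts in this comparison. It had 37, 31, 21 and 9 counts with tau and 4, 20, 5 and 7 with vehicle, which in CPM gave 20.2, 12.8, 7.68 and 4.34 against 2.17, 3.94, 2.18 and 3.55. The lowest tau library was just above the highest vehicle library, and the ratio of summed levels was 3.36 (2.27 to 5.07, 95% counting interval). With no filter Oas1a was called at a log2 change of 1.89 ± 0.40 (SE; edgeR, FDR = 6.51e-05). This change was below that of every other member in the tau comparison. Of the last 500 bases of Oas1a, 56.1% of 50-base windows also occur in its near-copy Oas1g, and reads that align to both were not counted. For Ifit3 and Ifit3b the shared part was 14.9% of the windows of Ifit3, and with the counts of Ifit3 and Ifit3b summed the log2 change of the pair was 4.63.

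In the tau comparison, 8 of the 8 members that passed the filter were called higher and none lower, and all 8 had tau libraries above every vehicle library. Over all 10408 genes tested, 14.6% were called higher and 15.5% lower, and 12.6% had every tau library above every vehicle library. The median log2 change of these members was 4.87, or 4.60 with Oas2 and Oasl1 at the low ends of their intervals, against -0.01 over all genes. A member with almost no counts in vehicle passed the filter only through its tau libraries, so this count is a description. Microglia markers summed to 6337 to 7567 CPM with tau and 3610 to 4466 CPM with vehicle, while astrocyte markers summed to 268 to 341 against 505 to 543 CPM and neuron markers to 64.9 to 73.8 against 125 to 163 CPM. In the tau comparison 4 of 8 microglia markers were called higher, and 3 of 6 astrocyte and 5 of 6 tested neuron markers lower. The part of this shift in the changes of the members was not tested, and in bulk libraries fewer cells of a type and less RNA per cell cannot be told apart.

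**Figure D2:**
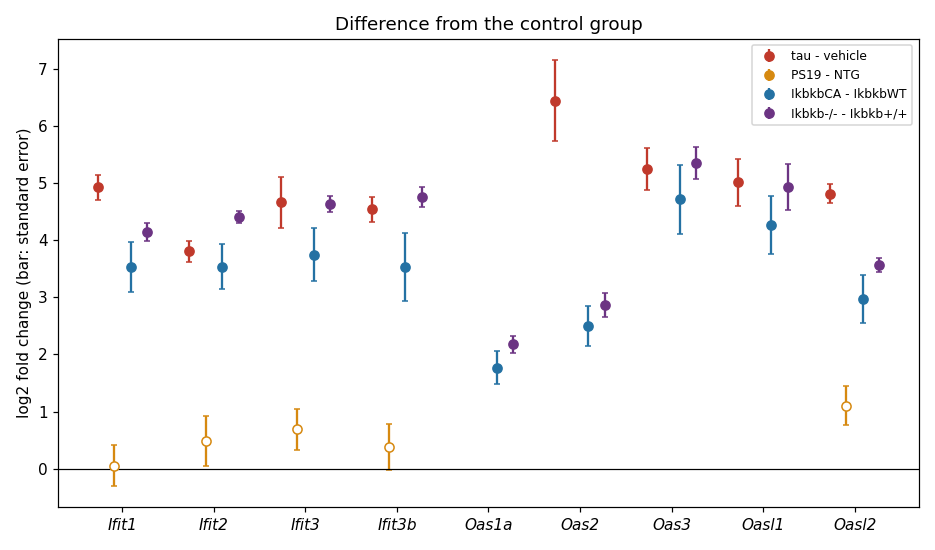
Log2 fold change of each member against its own control group in the 4 comparisons, with bars for the standard error. Filled points were called at an FDR under 0.05 and open points were not, and members left out by the filter have no point. The PS19 points lie between 0.05 and 1.10, and the other points between 1.77 and 6.44.

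The PS19 comparison asked whether these genes differed in microglia of aged tauopathy mice. No member passed the test. Oasl2 had 7.79, 11.5, 15.4 and 14.6 CPM in the PS19 libraries and 5.70, 6.37, 6.10 and 3.42 CPM in the NTG libraries. Every PS19 library was above every NTG library, with a log2 difference of 1.10 ± 0.34 (SE; edgeR, FDR = 0.377). Ifit3 had 22.6, 27.4, 42.1 and 11.8 CPM in PS19 and 15.0, 19.5, 10.3 and 17.1 CPM in NTG, and the groups overlapped at a log2 difference of 0.69 ± 0.36 (SE; edgeR, FDR = 0.633). Ifit2 and Ifit3b differed by 0.48 ± 0.44 and 0.38 ± 0.41 (log2, SE; edgeR, FDR = 0.805 and 0.834). Ifit1 was 7.61 to 11.9 CPM in PS19 and 4.63 to 12.7 CPM in NTG, a log2 difference of 0.05 ± 0.36 (SE; edgeR, FDR = 0.983).

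Oas1a, Oas2, Oas3 and Oasl1 had too few counts to pass the filter in these brains. Total counts were 3892830 to 7615105 in PS19 and 1864382 to 5108921 in NTG libraries, so raw counts overstate the differences, and the ratios are of scaled levels. Oas3 had 12, 6, 10 and 14 counts in PS19 and 2, 1, 4 and 1 in NTG, and no PS19 library was below an NTG library in CPM. Its ratio of summed levels was 2.60 (1.21 to 6.42, 95% counting interval). Oasl1 had 8, 24, 28 and 7 against 2, 3, 5 and 1 counts, a ratio of 3.02 (1.59 to 6.34), and Oas1a 50, 6, 39 and 13 against 1, 5, 8 and 5 counts, a ratio of 2.82 (1.72 to 4.86). Oas2 had 15, 2, 14 and 9 counts against 6, 0, 3 and 0, with a 95% counting interval of the ratio from 1.05 to 5.17. These intervals cover counting error only and not the spread between mice, and with no filter none of the 4 was called by edgeR (lowest FDR = 0.543).

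So 0 of the 5 members tested in PS19 were called by edgeR, by limma-voom or by DESeq2, and 1 of the 5, Oasl2, had an unadjusted p under 0.05 by each tool. Over all 11323 genes, 0.0795% were called in either direction by edgeR, and 4.54% had every PS19 library above every NTG library, against 1 of 5 members. The median log2 difference of the 5 members was 0.48, and over all genes it was 0.00. Granulocyte and monocyte markers summed to 354 to 2081 CPM in PS19 and 1232 to 1862 CPM in NTG, so these cells were present in both groups, and their part in the values was not tested.

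The IkbkbCA comparison asked how the members respond when IKKβ is active in microglia without tau. All 9 members rose. Ifit2 had 172, 176, 49.3, 172 and 165 CPM in IkbkbCA and 17.1, 14.5, 15.7, 6.56 and 9.52 CPM in IkbkbWT, a log2 change of 3.54 ± 0.40 (SE; edgeR, FDR = 0.00031). Ifit3 had 229, 213, 74.1, 245 and 222 CPM against 15.6, 12.2, 29.3, 9.02 and 7.25 CPM, a log2 change of 3.75 ± 0.46 (SE; edgeR, FDR = 0.000553). In both genes IkbkbCA replicate 3 was well below the other 4 IkbkbCA libraries and still above every IkbkbWT library.

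Ifit1 was 32.2 to 88.3 CPM against 2.95 to 12.7 CPM, and Ifit3b 8.52 to 56.8 CPM against 1.47 to 8.13 CPM, with log2 changes of 3.54 ± 0.44 and 3.53 ± 0.60 (SE; edgeR, FDR = 0.000551 and 0.00364). For Ifit3b the gap between the lowest IkbkbCA and the highest IkbkbWT library was small. The synthetase Oas3 had the highest change among the members, from 2 to 18 counts to 54 to 214 counts per library, with a log2 change of 4.72 ± 0.60 (SE; edgeR, FDR = 0.000553). Oasl1 rose by 4.27 ± 0.50, Oasl2 by 2.97 ± 0.42 and Oas2 by 2.50 ± 0.35 (log2, SE; edgeR, FDR = 0.000126, 0.00136 and 0.000644). Oas1a, a synthetase of the Oas1 cluster, had 33.5, 39.3, 22, 28.1 and 39.4 CPM against 7.81, 11.4, 16.4, 6.89 and 5.21 CPM. It had the lowest change among the members, 1.77 ± 0.29 (log2, SE; edgeR, FDR = 0.00198).

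Every IkbkbCA library was above every IkbkbWT library in 9 of 9 members, against 6.51% of the 11697 genes tested, and 9 of 9 were called higher against 7.24% of all genes. The share of all genes called lower was 7.16%. Oasl1 and Oas3, with at most 5 counts in all IkbkbWT libraries but 1, passed the filter through their IkbkbCA libraries, so these counts are a description. The median log2 change was 3.54 for the members and -0.05 for all genes. IkbkbWT libraries 4 and 5, which differed from the other 3 in Xist and Ddx3y, had the lowest levels of their group in 8 of the members, all but Oas2. IkbkbWT replicate 3 was the highest control in 7, Ifit2 and Oasl1 being the others. Without both, 9 of 9 members were called and their log2 changes ran from 1.44 to 4.11. With the Ddx3y level as a covariate, 9 of 9 were called and the changes ran from 1.67 to 4.60.

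Cx3cr1, the gene that carries the recombinase, fell in IkbkbCA. It was 1126 to 1316 CPM in IkbkbCA and 1500 to 2014 CPM in IkbkbWT, a log2 change of -0.56 ± 0.09 (SE; edgeR, FDR = 0.00158), and Ikbkb was 45.0 to 60.4 CPM against 40.4 to 58.8 CPM, which did not pass the test (edgeR, FDR = 0.407). The active kinase is expressed from an insertion at the Rosa26 locus, whose 3′ end may not be counted on Ikbkb, so this count does not check the genotype. Markers of border-associated macrophages summed to 482 to 1019 CPM in IkbkbCA and 1305 to 1720 CPM in IkbkbWT. Of these, 3 of 4 tested (Mrc1, Lyve1 and Cbr2) were called lower. Granulocyte and monocyte markers summed to 19.0 to 85.6 CPM against 7.55 to 11.4 CPM, with 1 of 2 tested, S100a8, called higher. Oligodendrocyte markers ranged from 277 to 4668 CPM in IkbkbWT and from 382 to 1671 CPM in IkbkbCA, and neuron markers from 4.90 to 125 and from 6.84 to 102 CPM, with none called. The part of these cells in the changes of the members was not tested.

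The Ikbkb-/- comparison asked the same question with Ikbkb targeted for deletion. All 9 members rose here too. Ifit2 had 223, 248, 220 and 221 CPM in Ikbkb-/- and 10.6, 10.9, 11.8 and 9.96 CPM in Ikbkb+/+, a log2 change of 4.41 ± 0.10 (SE; edgeR, FDR = 4.29e-19). Ifit3 had 289, 311, 398 and 436 CPM against 16.4, 15.3, 14.8 and 13 CPM, a log2 change of 4.63 ± 0.14 (SE; edgeR, FDR = 1.15e-15). Both groups were narrow, and their SEs were less than those of the same genes in IkbkbCA. Ifit1 rose by 4.14 ± 0.15 and Ifit3b by 4.75 ± 0.17 (log2, SE; edgeR, FDR = 1.83e-15 and 5.15e-15).

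Oas3 again had the highest fitted change of the family, from 2 to 9 counts to 59 to 316 counts per library, a log2 change of 5.36 ± 0.28 (SE; edgeR, FDR = 1.94e-11). Oasl1 had 17, 54, 61 and 75 counts against 3, 2, 3 and 0, a ratio of summed levels of 33.3 (16.6 to 78.2, 95% counting interval). Oasl2 had 146, 132, 125 and 124 CPM against 10.6, 10.2, 14.2 and 9.69 CPM, a log2 change of 3.56 ± 0.12 (SE; edgeR, FDR = 8.08e-16). Oas2 rose by 2.86 ± 0.21 and Oas1a by 2.18 ± 0.15 (log2, SE; edgeR, FDR = 6.67e-10 and 9.93e-11). Oas1a had 31.7, 34.5, 34.3 and 35.9 CPM against 8.04, 8.78, 7.51 and 6.64 CPM, and as in IkbkbCA it was the member with the lowest change.

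In 9 of 9 members every Ikbkb-/- library was above every Ikbkb+/+ library, against 8.66% of the 11242 genes tested. All 9 were called higher, against 7.91% of all genes, and 6.8% of all genes were called lower. Oasl1 and Oas3, with at most 9 counts in an Ikbkb+/+ library, passed the filter through their Ikbkb-/- libraries, so these counts too are a description. The median log2 change of the members was 4.41, or 4.14 with Oasl1 at the low end of its interval, and 0.00 over all genes. With the Ddx3y level as a covariate, 6 of 9 members were called, and Oas1a, Oas2 and Oasl1 had log2 changes of 1.66 ± 0.50, 2.19 ± 0.80 and 3.72 ± 1.84 (SE; edgeR, FDR = 0.079, 0.166 and 0.351). No Ikbkb-/- library shared its Ddx3y level with an Ikbkb+/+ library, so this fit rests on the spread within the groups.

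The targeted gene fell in this experiment. Ikbkb was 18.7 to 24.7 CPM in Ikbkb-/- and 45.6 to 55.2 CPM in Ikbkb+/+, a log2 change of -1.20 ± 0.12 (SE; edgeR, FDR = 6.85e-08). Ikbkb RNA was thus still counted, and a 3′ count does not show how complete the loss of the kinase was. Cx3cr1 fell from 1825 to 2857 CPM to 957 to 1161 CPM, with a log2 change of -1.16 ± 0.12 (SE; edgeR, FDR = 1.85e-06). Border-associated macrophage markers summed to 415 to 718 CPM against 1445 to 1699 CPM, and 4 of 4 tested (Mrc1, Lyve1, Cbr2 and Pf4) were called lower. Oligodendrocyte markers summed to 434 to 527 CPM in Ikbkb-/- against 249 to 347 CPM, and 4 of 6 were called higher. Granulocyte and monocyte markers summed to 7.09 to 12.6 against 7.57 to 339 CPM, with 0 of 3 tested called by edgeR and 2 of 3, S100a8 and S100a9, lower at an unadjusted p under 0.05. Lower Cx3cr1 and lower border-associated macrophage markers went with higher members in both Cre-carrying groups. The CreERT2 allele sits in Cx3cr1 in both, so the fall of Cx3cr1 cannot be told apart from the allele itself. With tau, Cx3cr1 was called higher at 1.08 ± 0.13 and Pf4 at 0.56 ± 0.15 (log2, SE; edgeR, FDR = 5.09e-08 and 0.0054). Mrc1 was not called at 0.32 ± 0.27 (log2, SE; edgeR, FDR = 0.422), and Lyve1, Cbr2 and Cd163 were left out by the filter. Pf4 was not among the markers called lower in IkbkbCA. The border-associated macrophage sum with tau was 107 to 112 against 56.5 to 96.3 CPM. The part of these markers in the results was not tested.

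Because the members rose in both genotypes, the difference between the IkbkbCA and Ikbkb-/- effects was tested in 1 fit of the 18 libraries. The difference was called for 0 of 9 members, against 3.01% of the 12352 genes tested. The difference was negative for all 9, that is, a smaller fitted rise in IkbkbCA, and ran from -0.34 ± 0.46 for Oas2 to -1.17 ± 0.76 for Ifit3b (log2, SE). For Ifit2 it was -0.86 ± 0.46 (SE; edgeR, FDR = 0.414), the lowest FDR of the members. By unadjusted p, 0 members were under 0.05 by edgeR or by limma-voom. The sign was not stable for Oas2 and Oas3, which were positive without IkbkbWT replicate 3, or for Oasl1 without IkbkbWT replicate 2. Without IkbkbCA replicate 3 the median difference was -0.40 in place of -0.59. Without IkbkbWT libraries 4 and 5 the median was -1.19, and still 0 members were called.

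The tau effect was compared in the same way with that of IkbkbCA. The difference was called for 2 of 9 members, Oas2 and Oasl2, against 9.35% of the 12841 genes tested. By this fit Oas2 rose more with tau by 4.13 ± 1.03 on the log2 scale (SE; edgeR, FDR = 0.0131), with 1 count of Oas2 in all vehicle libraries, so the size depends on the prior count, and limma-voom gave 2.55 ± 1.03 (SE; FDR = 0.139). Its level itself was lower in tau than in IkbkbCA, 11.7 ± 5.93 against 24.2 ± 4.80 CPM (SD, n = 4 and 5). Oasl2 rose more with tau by 1.78 ± 0.54 (SE; edgeR, FDR = 0.0488), and leaving out any of 14 of the 18 libraries, RLE normalization or limma-voom took this FDR above the threshold. Ifit1 had a difference of 1.31 ± 0.60 (SE; edgeR, FDR = 0.204), and Ifit2 one of 0.21 ± 0.50 (SE; edgeR, FDR = 0.849).

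Against the PS19 effect, the tau effect was called larger for 8 of 9 members, with 8.05% of the 11852 genes called in either direction. Oas2, Oas3 and Oasl1 had few counts in vehicle, PS19 and NTG and passed the filter through their tau libraries, so this count is a description. The size of the Oas2 difference also depends on the prior count. The 8 differences ran from 3.22 ± 0.46 for Ifit2 to 5.59 ± 1.40 for Oas2 (log2, SE; edgeR, FDR = 5.19e-05 and 0.0129). Ifit1 had a difference of 4.73 ± 0.43 and Oasl2 of 3.65 ± 0.34 (SE; edgeR, FDR = 8.96e-08 and 1.14e-07). Oas1a was not called, with 0.47 ± 0.84 (SE; edgeR, FDR = 0.803). It too had few counts and was left out by the filter in the tau and in the PS19 comparison, so its difference is imprecise. The cultures and the sorted adult cells differ in age, source and isolation as well as in the kind of tau exposure, and these cannot be told apart.

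**Figure D3:**
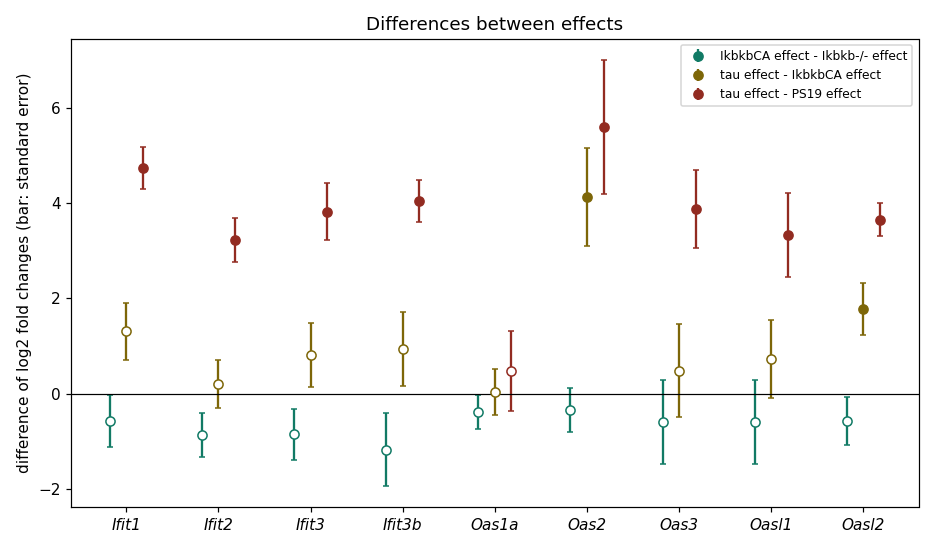
Difference between effects (log2) for each member, with bars for the standard error and filled points for an FDR under 0.05. The IkbkbCA minus Ikbkb-/- differences are all open and below 0, tau minus IkbkbCA is filled for Oas2 and Oasl2, and tau minus PS19 is filled for all members but Oas1a.

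The rest of the pathway was followed in lists of 31 genes. In the tau comparison 25 of the 29 tested were called higher and none lower, against 14.6% and 15.5% of all genes. The list of induction genes, which detect nucleic acids or carry the signal to interferon, had 8 of 10 tested higher. All 6 receptor and JAK-STAT genes, all 3 tested feedback genes and all 8 antiviral effectors were higher, and 0 of 2 genes of the 2-5A pathway were called. The highest changes were those of Irf7, the transcription factor that amplifies interferon production, with 6.32 ± 0.19, and of Mx1, a GTPase that blocks viral ribonucleoproteins, with 5.77 ± 0.52 (log2, SE; edgeR, FDR = 2.05e-22 and 1.24e-10). In all vehicle libraries together Mx1 and Mx2 had 3 counts each and Isg20 had 4. These genes passed the filter through their tau libraries, so the count of called effectors is a description. Their fitted sizes, and with them the rank of Mx1, depend on the prior count. The lowest were Jak1 with 0.61 ± 0.13 and Ifnar2 with 0.77 ± 0.13 (log2, SE; edgeR, FDR = 0.000429 and 1.88e-05).

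In IkbkbCA 18 of 30 tested pathway genes were called higher and none lower, against 7.24% and 7.16% of all genes. In Ikbkb-/- 17 of 30 were higher and none lower, against 7.91% and 6.8%. In both, 8 of 8 antiviral effectors and 3 of 4 feedback genes were higher. Irf7 rose from 9.35 to 19.3 CPM to 73.9 to 348 CPM in IkbkbCA and from 9.69 to 14.6 CPM to 281 to 507 CPM in Ikbkb-/-, with log2 changes of 4.20 ± 0.42 and 5.07 ± 0.27 (SE; edgeR, FDR = 0.000166 and 6.89e-06). After Irf7 the highest were Usp18, a brake on the receptor, in IkbkbCA with 3.94 ± 0.43, and Isg15, a ubiquitin-like modifier, in Ikbkb-/- with 3.94 ± 0.12 (log2, SE; edgeR, FDR = 0.000228 and 8.08e-16).

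Of the receptor and JAK-STAT list, Stat2 and Irf9 were called higher in each genotype. Stat2, a subunit of the transcription complex, changed by 2.04 ± 0.30 and 2.73 ± 0.12 and Irf9, its DNA-binding partner, by 0.94 ± 0.12 and 1.14 ± 0.10 (log2, SE, IkbkbCA then Ikbkb-/-). Irf9 was among the lowest called changes in both, beside Adar, which edits duplex RNA, in IkbkbCA with 0.98 ± 0.12 (log2, SE; edgeR, FDR = 0.00022) and Eif2ak2, an RNA-activated kinase, in Ikbkb-/- with 1.43 ± 0.10 (log2, SE; edgeR, FDR = 1.22e-10). The receptor chains did not pass the test in either genotype, with Ifnar1 at -0.06 ± 0.14 and -0.26 ± 0.11 and Ifnar2 at 0.28 ± 0.09 and 0.13 ± 0.08 (log2, SE). With tau, both chains were called higher, Ifnar1 with 0.78 ± 0.23 (log2, SE; edgeR, FDR = 0.00785).

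Of the 30 tested pathway genes, only Ikbke and Cmpk2 were called for the difference between the genotypes, against 3.01% of all genes in either direction. At that share, 0 calls among the 9 members does not set them apart from these genes. Ikbke, an IKK-related kinase that can phosphorylate Irf3 and Irf7, was 55.4 to 91.1 CPM in IkbkbCA and 14.1 to 21.2 CPM in IkbkbWT, but 11.0 to 13.6 CPM in Ikbkb-/- and 13 to 15.8 CPM in Ikbkb+/+. The difference between the effects was 1.95 ± 0.23 (log2, SE; edgeR, FDR = 2.82e-05). Cmpk2, a nucleotide kinase, rose less in IkbkbCA by 1.14 ± 0.29 on the log2 scale, a difference of -1.14 (edgeR, FDR = 0.0313).

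In PS19, 0 of 28 tested pathway genes were called by edgeR, against 0.0795% of all genes in either direction. So low a share leaves few or no calls for a list of this size. Of the 28, 4 had every PS19 library above every NTG library, against 4.54% of all genes, and 1 had every PS19 library below. Irf7 was 15.5 to 19.0 CPM in PS19 and 4.57 to 9.16 CPM in NTG, without overlap, at a log2 difference of 1.20 ± 0.28 (SE; edgeR, FDR = 0.195). Stat2 differed by 0.35 ± 0.28 and Irf9 by 0.31 ± 0.17 (log2, SE), and of these Irf9 did not overlap. Ifnb1, which encodes interferon β, was near the count limit throughout. It had 0 counts in all tau, vehicle and NTG libraries, 1 to 4 counts in each Ikbkb-/- library, at most 4 in IkbkbCA and at most 3 in the controls of the genotypes, and 21 of its 23 counts in PS19 came from 1 library. A count of 0 allows up to 3 counts per library, so lower levels with tau were not detectable.

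**Figure D4:**
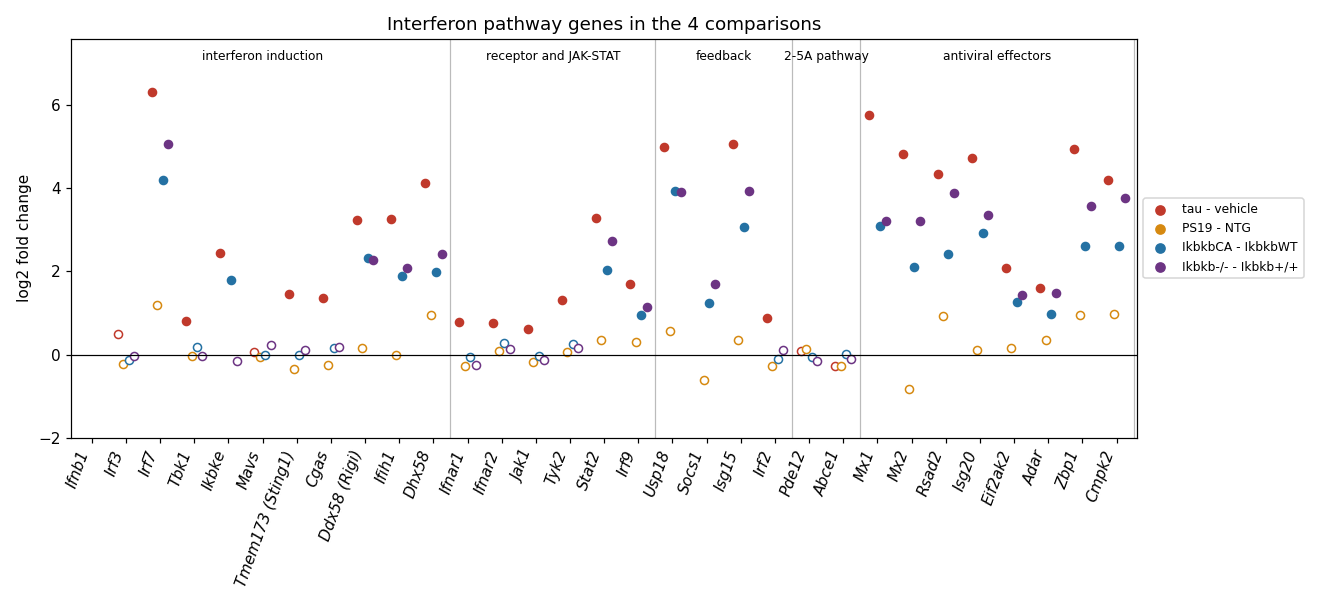
Log2 fold change of the 31 pathway genes in the 4 comparisons, grouped by list, with filled points for an FDR under 0.05 and open points for genes not called. Antiviral effectors are filled for tau, IkbkbCA and Ikbkb-/-, Ikbke is filled for tau and IkbkbCA, and no PS19 point is filled.

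Among the other IFIT and OAS genes of the annotation, Oas1b, Oas1c and Oas1g were called higher in both genotypes. In the tau comparison all 9 of these other genes were left out by the filter. There Oas1b, Oas1c, Oas1g and Ifit1bl1 had every tau library above every vehicle library. For Oas1c this was 3.71 to 11.5 against 0 to 1.74 CPM, and for Oas1g 1.46 to 7.63 against 0 to 1.31 CPM. In the PS19 comparison only Oas1c passed the filter, and it was not called at a log2 difference of 0.94. It was 3.11 to 4.74 CPM in PS19 and 0.518 to 2.53 CPM in NTG, without overlap, against 4.54% of all genes. Oas1g changed by 2.74 ± 0.38 in IkbkbCA and 3.23 ± 0.32 in Ikbkb-/- (log2, SE; edgeR, FDR = 0.000416 and 7.58e-08). Oas1c overlaps an opposite-strand gene, as Oasl1 does, and whether the counting used strand is not given in the sources used here. Ifit1bl1 and Ifit1bl2 had at most 15 and 8 counts in a library. Oas1d and Oas1e had at most 2 counts, and Oas1f and Oas1h had 0 counts in all 34 libraries.

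Over the 34 libraries, pairs of members had Pearson correlations of log2 CPM between 0.54 (Oas1a with Oasl1) and 0.98, with a median of 0.91 over the 36 pairs. These values are set mostly by the contrast of high and low groups. On deviations from the group means, the median was 0.43 and the range -0.04 to 0.82. The 5 other genes most like the mean of the members were Irf7 with r = 0.98, Cmpk2 with 0.98, Sp100 with 0.97, Ddx58 with 0.97 and Ifi206 with 0.96, out of 13733 genes. Within groups their correlations with the mean of the members were 0.70, 0.63, 0.73, 0.64 and 0.75. The libraries share depth and preparation within an experiment, so these values describe likeness only.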

How the data were processed

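The authors prepared QuantSeq 3′ libraries of microglia RNA and processed the reads on the BlueBee platform against GRCm38 with GENCODE annotation. The submitters' notes name STAR, RSEM, edgeR and limma, and which tool counted these reads and whether by strand is not given in the sources used here. The deposited tables hold whole-number counts per Ensembl gene and library without normalization. Reads aligned to several places were not counted on genes. Their tally was 52.5% to 56.2% of its sum with the tallies on genes, outside genes and ambiguous. Unaligned reads are not in that sum, and whether the tally holds reads or alignments is not given. Symbols came from GENCODE M21.

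Libraries were grouped by their labels. Each comparison was fitted in R 4.3.3 with edgeR 4.0.16 (filterByExpr, TMM, robust quasi-likelihood test) on the libraries of its groups, and an FDR under 0.05 (Benjamini-Hochberg, all tested genes) was a call. The SE was taken from the fold change and F statistic. Alternatives were RLE, total-count scaling, no filter, limma-voom 3.58.1, DESeq2 1.42.0, summed copies, covariates and each library left out. Scripts were tested on simulated data. None of 56 within-group pairs of libraries was identical. Members and gene lists were chosen with earlier results of these data known. The text names all members, 6 fixed pathway genes, the 2 highest and 2 lowest called pathway genes per comparison, the other family genes, Ikbkb, Cx3cr1 and the 5 genes most like the members. Ikbke, and Cmpk2 in the difference between genotypes, were named after their values were seen. 2 genes of the pathway lists are not reported here.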

Additional observations from a re-analysis of the deposited data

Results flagged for a closer look

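In 72 combinations of a member and a group, 8 had a library far from the others of its group. Some such flags arise by chance. The members share libraries and rise together, so the 72 are not independent and the 8 were not set against a chance share. IkbkbCA replicate 3 was low in Ifit2 at 49.3 CPM and in Ifit3 at 74.1 CPM, where the nearest library had 165 and 213 CPM. IkbkbWT replicate 3 was high in Ifit1 at 12.7 CPM and in Oas3 at 3.40 CPM. Vehicle replicate 4 was high in Ifit1 at 10.7 CPM, tau replicate 4 in Ifit2 at 138 CPM and Ikbkb-/- replicate 2 in Ifit2 at 248 CPM. The Oas2 level of 0.197 CPM in vehicle replicate 2 is 1 count.

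The tau effect differed from the IkbkbCA effect by the test of the difference itself for Oas2, at 4.13, and for Oasl2, at 1.78 on the log2 scale. It differed from the PS19 effect for 8 members, with log2 differences of 4.73 for Ifit1, 3.22 for Ifit2, 3.82 for Ifit3, 4.04 for Ifit3b, 5.59 for Oas2, 3.88 for Oas3, 3.33 for Oasl1 and 3.65 for Oasl2.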

How the results depend on the processing

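The number of members called stayed within 1.5 times in each of the 4 group comparisons under every alternative run, with the lowest share 6 of 9 in Ikbkb-/- with Ddx3y as a covariate. The difference between the tau and IkbkbCA effects was called for 1 member with RLE normalization, 0 with limma-voom and 1 to 2 when single libraries were left out. There the Oas1a difference was -0.37 with limma-voom and ran from -0.37 to 0.34 over libraries left out, and that of Oas3 from -0.56 to 1.11. Over libraries left out, the Ifit1 difference in PS19 ran from -0.21 to 0.31. In the difference between IkbkbCA and Ikbkb-/-, Oas2 ran from -0.59 to 0.0633, Oas3 from -0.88 to 0.46 and Oasl1 from -1.07 to 0.00886. The causes were not tested. Of the other log2 values of members, 324 of those under other settings and 705 of those with a library left out kept direction and call. In the tau and PS19 difference, Oas2 without NTG replicate 1 and Oasl1 without NTG replicate 3 lost their call.

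Over all genes, PS19 gave 9 calls, and 4 with limma-voom, 146 with no filter, 103 with DESeq2, 1 with age as a covariate and 4 to 83 with a library left out (83 without PS19 replicate 2). IkbkbCA gave 1684 calls, and 1023 without IkbkbWT replicates 4 and 5. Ikbkb-/- gave 1653 calls, 880 in 1 fit with the IkbkbCA experiment and 306 with Ddx3y as a covariate. The Ddx3y covariate and the joint removal of the IkbkbWT replicates were chosen after seeing the data. With total-count scaling the tau calls split into 1061 higher and 2268 lower, in place of 1519 and 1617, and the all-gene median was -0.16, and IkbkbCA into 739 and 1244 in place of 847 and 837. No paired analysis was run, because the labels give no replicate numbers and nothing in them links the subsets of similar libraries in IkbkbWT to those in IkbkbCA. Libraries within such a subset may not be independent replicates, and the errors of the IkbkbCA fits do not take this into account. Every IkbkbCA library was above every IkbkbWT library in 9 of 9 members, so any matching of these subsets keeps the direction.

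Members with few counts, Oas2 and Oasl1 with vehicle and 4 OAS members in the adult mice, limit the precision of their fold changes.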
